A study of Mus musculus with 28 samples.

Results

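*Csmd2* and *Csmd3* are the paralogs of *Csmd1*, the gene deleted in the knockout mice of this study. Every transcript of either gene in GENCODE M21 that the deposited expression matrix lists was taken, singly and summed per gene. That gave 14 of the 94480 transcripts in the matrix, 5 of *Csmd2* and 9 of *Csmd3*, or 2 of the 37122 genes with a matched transcript.

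The libraries came from whole gonads and sorted germ cells of *Csmd1* wildtype and knockout mice, 28 in all. Whole testes came from wildtype mice 178 and 648 and from knockout mice 214, 269, 273, 286 and 308, and the whole ovary came from wildtype mouse 86. Sorted testis cells make up 4 stages of spermatogenesis: spermatogonia, the stem and dividing cells; primary and then secondary spermatocytes, which pass through meiosis; and the haploid spermatids. Wildtype mice 178 and 648 gave all 4 stages and wildtype mouse 351 gave spermatids. Among the knockout mice, 544 gave all 4 stages and 286 gave all but primary spermatocytes. Knockout mouse 550 gave primary and secondary spermatocytes, and knockout mice 613 and 614 only primary spermatocytes. Each group holds 1 to 5 mice. The p-values of the main fits (limma) measure the spread between libraries inside groups, pooled over the groups of a fit. They treat libraries of the same mouse in different stages as independent.

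The knockout is constitutive: exon 1 of *Csmd1* and part of the intron after it are replaced by a lacZ/neomycin cassette in every cell. The labels give the strain of all mice as C57BL/6, while the methods of the study describe a mixed background. The sorted males are described as sexually mature. The labels give no age for any library, and the study also used testes of immature mice.

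The 3 CSMD genes are named after the CUB and Sushi domains repeated many times in their proteins, which sit in the cell membrane. Sushi domains are the building blocks of complement regulators such as CD55, and CSMD1 inhibits the classical complement pathway in vitro. All 3 family members are best known from the brain, where *Csmd2* and *Csmd3* have been studied in dendrites and synapses.

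*Csmd2* lies on the plus strand of chromosome 4 of GRCm38 (chr4:127987857-128567656) and *Csmd3* on the minus strand of chromosome 15 (chr15:47580637-48792063). Their full-length transcripts, Csmd2-205 and Csmd3-201, both have 71 exons. Csmd2-205 is 13555 nt long with 3611 codons, and Csmd3-201 is 13022 nt long with 3707 codons. Csmd1-201, for comparison, has 70 exons, 14182 nt and 3564 codons. Over the aligned coding positions *Csmd2* and *Csmd3* were identical at 61.3% of bases, *Csmd1* and *Csmd3* at 64.1%, and *Csmd1* and *Csmd2* at 66.6%. The GC content of the coding sequence was 57.3% in *Csmd2*, 52.5% in *Csmd1* and 44% in *Csmd3*.

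Whether reads of one paralog can be taken for another depends in part on the longest stretch that they share letter for letter. Only such exact runs were searched, not stretches with mismatches. Among the 22 annotated transcripts of the 3 genes, the longest exact run shared by different genes was 44 nt, between *Csmd1* and *Csmd3*, which is shorter than a single read of this protocol. Full-length transcripts of the paralogs had 0 runs of 50 nt in common. The sequences are shown 5′ to 3′ on the coding strand, with the shared letters in capitals, for *Csmd1* (chr8:16196080-16196128 and chr8:16190068-16190092) and *Csmd3* (chr15:47947979-47948027 and chr15:47914081-47914105), where the run crosses an exon junction in both genes. The longest run of *Csmd2* and *Csmd3*, 25 nt, follows, and it also crosses a junction in both (chr4:128520318-128520340 and chr4:128521852-128521883 in *Csmd2*, chr15:47659006-47659028 and chr15:47657649-47657680 in *Csmd3*).
Csmd1, run shared with Csmd3: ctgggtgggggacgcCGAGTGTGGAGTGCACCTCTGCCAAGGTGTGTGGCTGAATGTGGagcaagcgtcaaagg
Csmd3, run shared with Csmd1: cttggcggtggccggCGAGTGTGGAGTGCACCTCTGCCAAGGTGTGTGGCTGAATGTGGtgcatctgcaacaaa
Csmd2, run shared with Csmd3: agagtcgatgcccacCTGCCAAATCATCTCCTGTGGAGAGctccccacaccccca
Csmd3, run shared with Csmd2: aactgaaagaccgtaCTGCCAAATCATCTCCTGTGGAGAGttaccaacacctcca

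A second set of sequences marks the places in the genes on which the values below turn. The coding starts of *Csmd2* (chr4:127988070-127988129) and *Csmd3* (chr15:48791845-48791904) lie in exon 1, and the start codon is in capitals. The junction of *Csmd3* exons 15 and 16 (chr15:48004641-48004670 and chr15:48001632-48001661) is printed with the bases of exon 16 in capitals. The shorter coding transcript Csmd3-207 begins downstream of these bases, inside exon 16 (at chr15:48001621). Exon 20 of *Csmd3* (chr15:47954992-47955051, its first 3 bases in capitals) is the first full-length exon inside Csmd3-202, the transcript with the highest RPKM of *Csmd3* in 4 of 5 spermatid libraries.
Csmd2 coding start: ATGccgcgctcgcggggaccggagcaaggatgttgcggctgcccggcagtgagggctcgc
Csmd3 coding start: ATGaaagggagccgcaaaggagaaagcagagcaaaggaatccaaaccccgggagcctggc
Csmd3 exon 15 and exon 16 junction: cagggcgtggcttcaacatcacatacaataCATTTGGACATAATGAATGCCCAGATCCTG
Csmd3 exon 20 start: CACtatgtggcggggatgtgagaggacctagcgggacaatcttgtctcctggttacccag

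The values of *Csmd2* rest on partial transcripts only. Csmd2-205, its full-length coding transcript, has a value in no library but that of knockout 613, and Csmd2-206 is not in the matrix. The 4 transcripts measured are annotated as non-coding: Csmd2-201 (exons 1 to 13), Csmd2-203 (exons 1 to 25), Csmd2-204 (exons 37 to 44) and Csmd2-202 (exons 61 to 64). Together they cover 5738 nt, or 42.3%, of Csmd2-205, and 2186 of the 3320 nt of Csmd2-204 lie outside its exons. For *Csmd3* all 9 transcripts had values. Csmd3-201, Csmd3-204 and Csmd3-209 are full length, Csmd3-207 runs from exon 16 to exon 71, and the other 5 are shorter transcripts annotated as non-coding.

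Expression was given in RPKM, reads scaled to transcript length and to the mapped reads of the library. The RPKM values of 27 libraries fall on whole reads (93.1 to 94.6% of the low values, against 12% by chance), from which 23811000 to 61658000 mapped reads per library (median 45377000) were recovered. A transcript lying wholly inside a longer one held no more reads than it in 99.1 to 99.4% of pairs, so a read is counted in every transcript that contains it. A sum over transcripts therefore counts shared reads repeatedly and is used here to compare libraries, not to compare genes. The library of knockout 613 was quantified differently, with 12.6% of values on whole reads and 39.1% of nested pairs in that order, and it is shown apart.

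The sort labels were checked with 6 markers each for spermatogonia, primary spermatocytes and spermatids (among the last the protamines Prm1 and Prm2 and the transition proteins). The summed RPKM of the spermatid markers was 7290 to 7510 in the spermatids of wildtype 178 and 351 and knockout 544. It was only 259 in those of wildtype 648 and 249 in those of knockout 286, where the primary spermatocyte markers reached 980 and 614. The library labelled spermatogonia of knockout 544 held 10800, against 6.93 to 467 in the other 3 spermatogonia libraries. In these 3 libraries the spermatid markers depart from the labels. Yet the spermatogonia of knockout 544 held 286 RPKM of the spermatogonia markers, more than any sorted library of another stage, and the spermatids of wildtype 648 and knockout 286 held the most spermatid markers of any library of their mouse. Sorts were mixed elsewhere too, with primary spermatocyte markers at 1960 in the spermatogonia of wildtype 178 and at 708 in its primary spermatocytes. Whole testes also fell apart: 4790 to 10700 in wildtype 178 and knockout 214 and 273, and 8.56 to 73.9 in wildtype 648 and knockout 269, 286 and 308. With no ages in the labels, testes or sorted cells poor in spermatid markers cannot be told apart from those of younger mice, and this holds for each stage and knockout value below that rests on mice 648, 269, 286 and 308. *Csmd1* itself is no check of the labels, since its full-length transcript also counts reads behind the deleted exon: Csmd1-201 ran from 0.008 to 0.517 RPKM in wildtype sorted libraries and from 0.015 to 2.0 in the knockout ones used here. In these bulk samples, fewer cells of a type and less RNA per cell cannot be told apart.

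*Csmd3* was lowest in wildtype spermatogonia and highest in wildtype spermatids. Its summed RPKM was 0.242 and 0.114 in spermatogonia of mice 178 and 648, and 0.941 and 0.657 in their primary spermatocytes. Secondary spermatocytes held 1.99 and 0.793, and spermatids 7.56 in mouse 178, 4.72 in mouse 351 and 1.44 in mouse 648. Spermatogonia lay below every later stage. Groups of 2 or 3 libraries easily separate by chance, and the share of all genes that did so was not counted. Primary and secondary spermatocytes overlapped in range, as did secondary spermatocytes and spermatids, so these neighbours in the order could not be separated by their spread.

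*Csmd2* had another order in the same libraries. Its summed RPKM was 0.102 and 0.289 in spermatogonia of mice 178 and 648, and 1.99 and 1.24 in primary spermatocytes. In secondary spermatocytes it was 1.42 and 1.55, and in spermatids 0.821 (mouse 178), 0.403 (mouse 351) and 1.27 (mouse 648). The spermatocyte stages overlapped with each other, and spermatids overlapped with primary spermatocytes. Spermatids lay below secondary spermatocytes and above spermatogonia in these 7 libraries. Here too the groups are small, and the share of all genes that separate in this way was not counted.

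**Figure D1:**
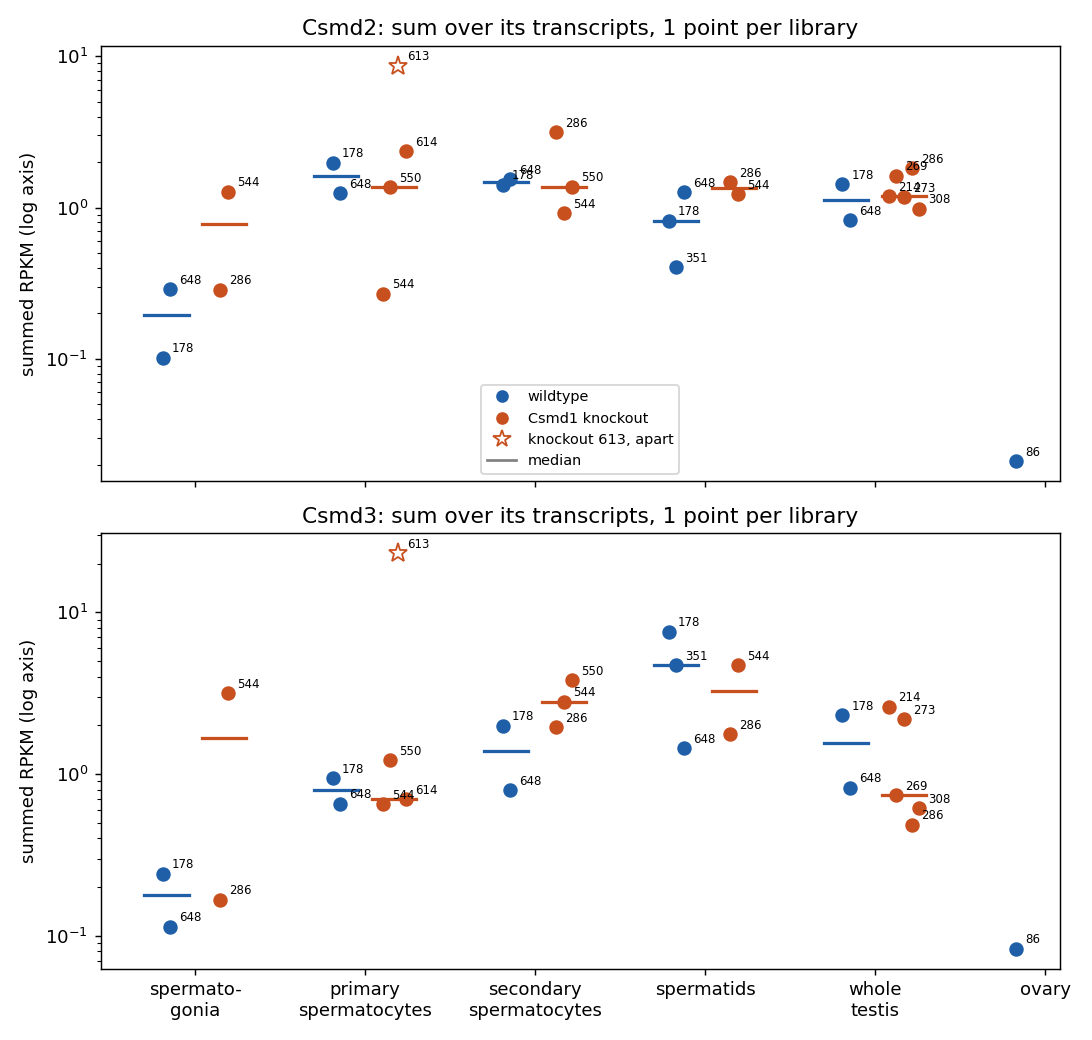
Summed RPKM of *Csmd2* (top) and *Csmd3* (bottom) on a log axis, 1 point per library with its mouse number, wildtype in blue and *Csmd1* knockout in orange; short lines are medians of groups with more than 1 library, and knockout 613 is an open star outside the medians. *Csmd3* climbs from 0.114 to 0.242 in wildtype spermatogonia to 1.44 to 7.56 in wildtype spermatids, while *Csmd2* lies at 1.24 to 1.99 in wildtype primary and at 1.42 to 1.55 in wildtype secondary spermatocytes.

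The mean of the late stages (secondary spermatocytes and spermatids) was compared with that of the early ones (spermatogonia and primary spermatocytes) on log2(RPKM + 0.1), a scale that understates changes of low values. In the 9 wildtype libraries *Csmd3* rose by 2.23 in the late stages (standard error 0.59, adjusted p = 0.028, limma), where 20.0% of all 21685 genes passed an adjusted p of 0.05. *Csmd2* differed by 0.77 (standard error 0.50, 95% interval -0.34 to 1.88, adjusted p = 0.294, limma). In mice 178 and 648 *Csmd3* was higher in the late stages by 2.74 and 1.54, and *Csmd2* by 0.87 and 1.05.

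The *Csmd3* call in wildtype libraries was not robust to the loss of a library. It held without the spermatids of mouse 648, whose spermatid markers depart from their label (2.56, adjusted p = 0.0105, limma), and without its secondary spermatocytes (2.53, adjusted p = 0.0487, limma), and missed the threshold without any 1 of the other 7, with adjusted p up to 0.0962. When stages were exchanged inside each mouse, an exact permutation test gave p = 0.0556, the smallest that 36 arrangements allow, and 0.225 after Benjamini-Hochberg adjustment over the 18 exact tests made here.

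With both genotypes (19 libraries, 613 left out) *Csmd3* rose by 1.94 in the late stages (standard error 0.47, adjusted p = 0.00438, limma; 40.3% of 22132 genes passed). It was higher in the late stages of each of the 5 mice with both kinds of stage: by 2.74 and 1.54 in wildtype 178 and 648, and by 2.87, 1.26 and 1.57 in knockout 286, 544 and 550. Exchanging stages inside each mouse gave an exact permutation p of 0.00154 (1296 arrangements, two-sided, adjusted p = 0.0278 over the 18 exact tests). Without the 3 libraries whose spermatid markers depart from the labels the difference was 2.73. These were chosen after seeing the data, by markers that were high in the same libraries as *Csmd3*, so this value is no independent check. With the differently quantified library of 613 included, the *Csmd3* rise missed the threshold (1.65, adjusted p = 0.0583, limma). *Csmd2* differed by 0.79 (standard error 0.42, 95% interval -0.10 to 1.67, adjusted p = 0.144, limma), and by 0.90 without those 3 libraries (adjusted p = 0.118, limma). Its values within mice were 0.87 and 1.05 in wildtype 178 and 648 and 2.55, 0.71 and 0.01 in knockout 286, 544 and 550, with an exact permutation p of 0.0548.

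Both paralogs were lower in wildtype spermatogonia than in the mean of the other stages. *Csmd2* fell by 2.23 (standard error 0.59, adjusted p = 0.0153, limma) and *Csmd3* fell by 2.63 (standard error 0.70, adjusted p = 0.0158, limma), in a comparison where 38.7% of the 21685 genes passed. In mice 178 and 648 the differences were -2.82 and -1.89 for *Csmd2* and -2.90 and -2.24 for *Csmd3*. Neither call held without either spermatogonia library: the adjusted p was 0.114 and 0.0553 for *Csmd2* and 0.0511 and 0.145 for *Csmd3* (limma, without mouse 178 and without mouse 648). The exact permutation p was 0.0625 for both, the smallest that 16 arrangements allow. Somatic cell markers were also high in these libraries: the 6 peritubular and stromal markers summed to 127 and 778 RPKM in the spermatogonia of mice 178 and 648, against 3.17 to 120 in the other wildtype sorted libraries, and their part in the result was not tested.

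**Figure D2:**
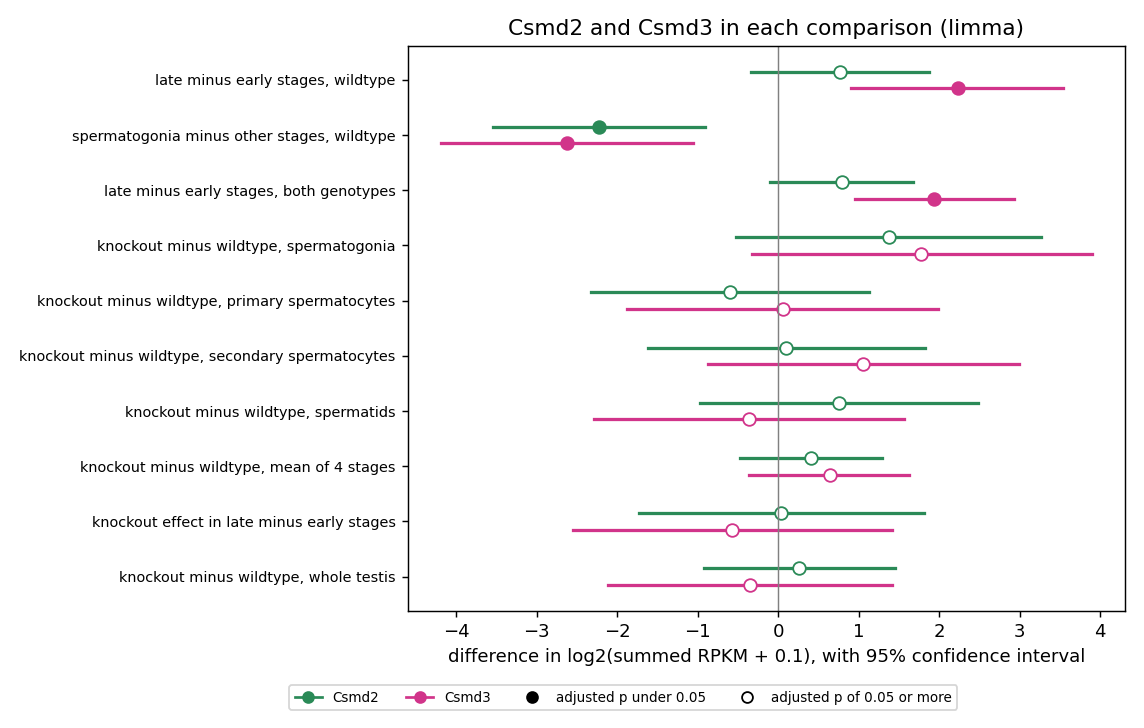
Differences in log2(summed RPKM + 0.1) of *Csmd2* (green) and *Csmd3* (pink) for the comparisons named at the left, with 95% confidence intervals; filled points have an adjusted p under 0.05 (limma over all genes tested). *Csmd3* passes in the 3 comparisons of stages, *Csmd2* only for spermatogonia against the other stages (-2.23), and every interval for knockout against wildtype includes 0.

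*Csmd3* and the spermatid markers were high in the same libraries. The 3 spermatid libraries with marker sums of 7290 to 7510 held 4.72 to 7.56 RPKM of *Csmd3*. The 2 with 249 and 259 (knockout 286 and wildtype 648) held 1.76 and 1.44. Spermatid libraries poor in the markers thus also held less *Csmd3*. The secondary spermatocytes of knockout 286, with a marker sum of only 81.4, held 1.95 RPKM of *Csmd3*, more than either of those 2. The spermatogonia library of knockout 544, with a marker sum of 10800, held 3.15, against 0.114 to 0.242 in the other 3. Among whole testes, those of wildtype 178 and knockout 214 and 273 held 2.31, 2.61 and 2.18 RPKM of *Csmd3*, whereas wildtype 648 and knockout 269, 286 and 308, whose markers were low, held 0.821, 0.739, 0.487 and 0.614. The part of the marker levels in the *Csmd3* values was not tested.

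*Csmd2* was spread differently. In the spermatogonia library of knockout 544 it was also high, 1.27 RPKM against 0.102 to 0.289 in the other 3. In whole testes the marker-rich and marker-poor libraries overlapped: it was 1.43, 1.19 and 1.17 RPKM in the testes of wildtype 178 and knockout 214 and 273, and 0.823, 1.63, 1.82 and 0.985 in those of wildtype 648 and knockout 269, 286 and 308. Spermatids of wildtype 178 and 351, rich in the markers, held 0.821 and 0.403 RPKM, less than the 1.27 and 1.48 of the marker-poor spermatids of wildtype 648 and knockout 286. Those of knockout 544, also rich in the markers, held 1.23. In each mouse with a whole testis library and sorted cells (178, 648 and 286), the whole testis value of either gene lay inside the range of the sorted stages.

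**Figure D3:**
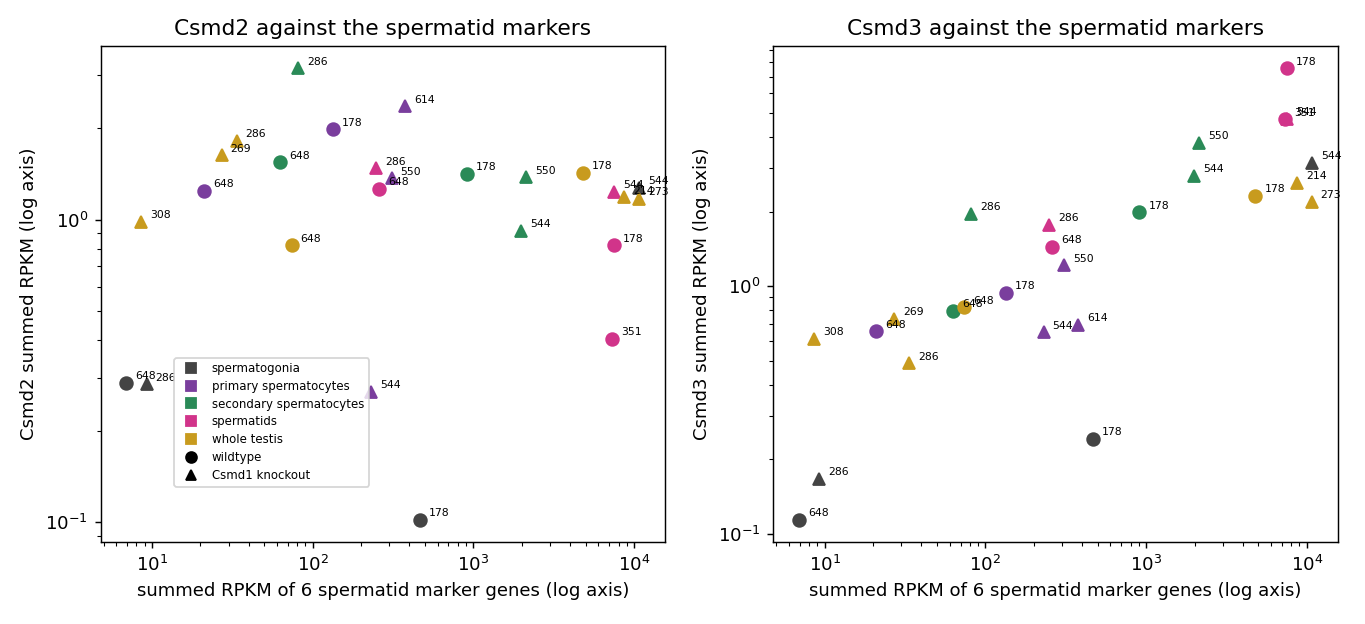
Summed RPKM of *Csmd2* (left) and *Csmd3* (right) against that of the 6 spermatid markers, both on log axes, 1 point per testis or sorted library (26 in all) with its mouse number; colours are stages, circles wildtype and triangles *Csmd1* knockout. *Csmd3* lies at 1.99 or more in every library with a marker sum of 909 or more, and *Csmd2* lies between 0.403 and 1.43 there.

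Within *Csmd3*, 6 of the 9 transcripts passed. Csmd3-201, Csmd3-204, Csmd3-209 and Csmd3-207 count mostly the same reads, so their passes are not separate results. With both genotypes, late minus early was 1.23 for Csmd3-201 (standard error 0.31, adjusted p = 0.00557, limma) and 1.36 for Csmd3-207 (0.34, adjusted p = 0.00561). It was 1.6 for Csmd3-202, exons 20 to 22 with bases outside the full-length exons (0.52, adjusted p = 0.0212), and 0.98 for Csmd3-208, exons 62 to 71 (0.28, adjusted p = 0.0107). Csmd3-204 and Csmd3-209, nearly the same sequence as Csmd3-201, passed too, and 40.7% of all 67840 transcripts did. Csmd3-206 (exons 58 to 59) did not, at 0.62 (adjusted p = 0.0644, limma). The 5′ fragments Csmd3-205 (exons 1 to 10) and Csmd3-203 (exons 1 to 9 with 1874 nt of its own) did not pass either, but were too low for a change to be seen: Csmd3-205 held 0 reads in 14 of the 19 libraries. The parts of the gene were not tested against each other. In the wildtype libraries alone Csmd3-207 (1.52, adjusted p = 0.0492, limma) and Csmd3-208 (1.37, adjusted p = 0.0363) passed, against 17.9% of 66945 transcripts, and Csmd3-201 did not (1.35, adjusted p = 0.0601). For *Csmd2* 0 of 4 transcripts passed in either fit (limma), and 0 of 4 had an unadjusted p under 0.05. Their differences with both genotypes ran from 0.10 (Csmd2-202) to 0.74 (Csmd2-203).

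Reads were scarce at the 5′ end of *Csmd3*, around the coding start printed above. Exons 1 to 10 make up 13.2% of Csmd3-201, yet in the 19 sorted libraries Csmd3-205 held 19 reads beside 2659 of Csmd3-201 (0.71%), and 14 of these libraries held 0. Since 158 of its 1876 nt lie outside Csmd3-201, this share is an upper figure. The highest was 3 beside 22 reads, in spermatogonia of wildtype 178. In the 5 spermatid libraries there were 0 reads beside 1283, which allows a share of up to 0.23%, counting error only. These ran from 134 reads of Csmd3-201 in wildtype 648 to 461 in wildtype 178.

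Whole testes held more reads there. The testis of wildtype 178 had 16 beside 157 (10.2%, 95% Wilson interval 6.37 to 15.9%) and that of wildtype 648 had 3 beside 58 (5.17%, 1.77 to 14.1%). The knockout testes of 214 and 269 had 4 beside 166 (2.41%) and 2 beside 62 (3.23%), and those of 273, 286 and 308 had 0 beside 116, 29 and 45. Knockout minus wildtype for Csmd3-205 in whole testis was -0.77 (standard error 0.54, adjusted p = 0.562, limma), and 0.00147% of 68122 transcripts passed in that comparison.

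The rest of *Csmd3* was not evenly covered either. Parts of Csmd3-201 outside Csmd3-207 are 3906 of its 13022 nt, of which 2607 nt lie upstream and 1085 nt at the 3′ end. They held 0 to 23.1% of its reads in sorted libraries (median 7.41%) and 0 to 18.5% in whole testes (median 9.04%). Csmd3-202 exceeded Csmd3-207 per length in 18 of 19 sorted libraries and 6 of 7 testes. In spermatids of wildtype 178 Csmd3-202 stood at 3.14 RPKM (118 reads), Csmd3-207 at 1.10 (437 reads) and Csmd3-208 at 0.578 (74 reads). Of its 865 nt, 343 are outside the exons of Csmd3-201, and reads from these and from the shared exons were not separated.

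Parts of *Csmd2* cannot be ranked by these values, since most of Csmd2-204 lies outside the full-length exons. In primary spermatocytes of wildtype 178 and 648 Csmd2-203 had 0.750 and 0.621 RPKM (181 and 127 reads), Csmd2-204 had 0.266 and 0.200, and Csmd2-202 had 0.595 and 0.117. In wildtype spermatids Csmd2-203 had 0.326, 0.215 and 0.525 RPKM in mice 178, 351 and 648, from 58, 21 and 111 reads.

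**Figure D4:**
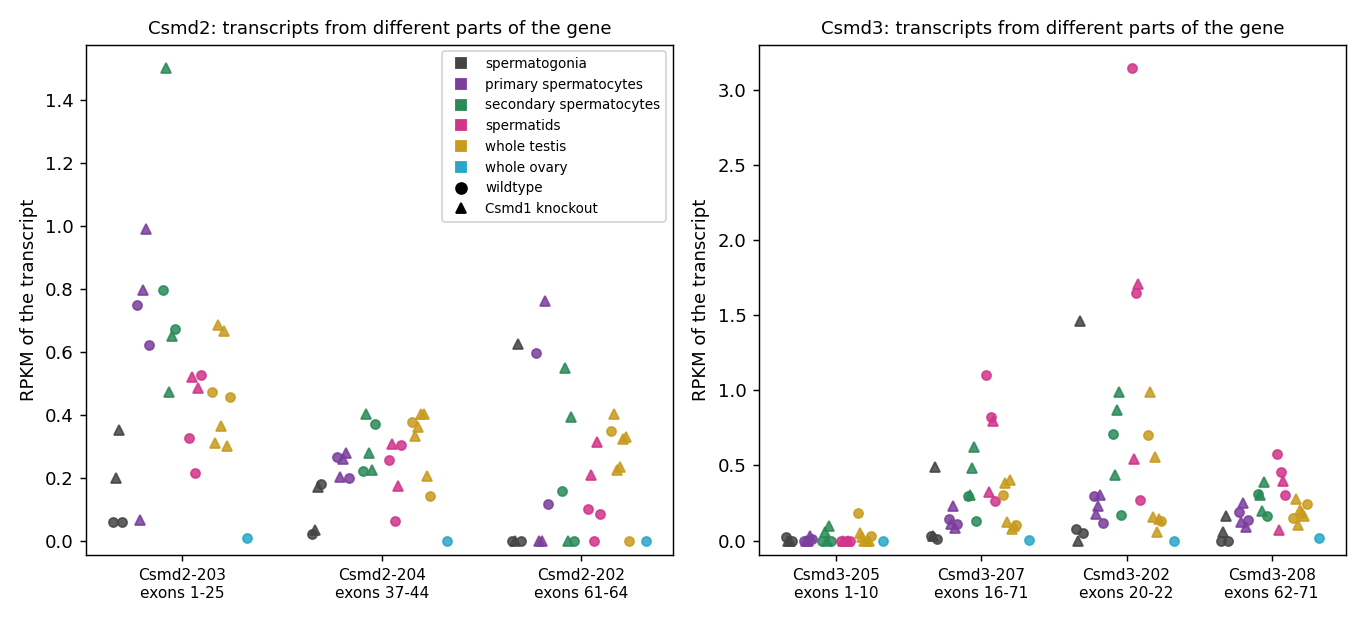
RPKM (linear axis) of transcripts covering different exons of *Csmd2* (left) and *Csmd3* (right), 1 point per library without knockout 613; colours are tissues and stages, circles wildtype and triangles *Csmd1* knockout. All spermatid libraries are at 0 for Csmd3-205 (exons 1 to 10), while they range up to 3.14 RPKM for Csmd3-202 (exons 20 to 22).

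Knockout of *Csmd1* was compared with wildtype in whole testis and in each sorted stage to see whether its paralogs differed in level. No knockout ovary was available. In whole testis *Csmd2* was 0.823 and 1.43 RPKM in the 2 wildtype mice and ran from 0.985 to 1.82 (median 1.19) in the 5 knockout mice. *Csmd3* was 0.821 and 2.31 in wildtype and ran from 0.487 to 2.61 (median 0.739) in knockout. The groups overlapped for both genes. The differences were 0.26 (standard error 0.52, 95% interval -0.92 to 1.45, adjusted p = 0.919) for *Csmd2* and -0.35 (0.78, -2.12 to 1.41, adjusted p = 0.928) for *Csmd3* in limma. Of 22763 genes 0.0% passed, with 2492 at an unadjusted p under 0.05. By exact permutation p was 0.524 and 0.571 (two-sided, the smallest possible 0.0476). The testis of wildtype 178 is missing the same number of transcripts as the knockout testes (865, against 2828 in that of wildtype 648), and against it the differences were -0.10 and -1.04.

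In sorted cells the knockout values were as follows. Spermatogonia of mice 286 and 544 held 0.286 and 1.27 RPKM of *Csmd2* and 0.167 and 3.15 of *Csmd3*. Primary spermatocytes of 544, 550 and 614 held 0.270, 1.37 and 2.37 of *Csmd2* and 0.650, 1.21 and 0.698 of *Csmd3*. Both genes overlapped between the genotypes in both stages.

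Secondary spermatocytes of 286, 544 and 550 held 3.15, 0.919 and 1.38 RPKM of *Csmd2*, and 1.95, 2.79 and 3.79 of *Csmd3* against 0.793 and 1.99 in wildtype. Spermatids of 286 and 544 held 1.48 and 1.23 of *Csmd2* against 0.403 to 1.27 in wildtype, and 1.76 and 4.73 of *Csmd3* against 1.44 to 7.56. All these groups overlapped.

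No stage gave a difference past the threshold. For *Csmd2* knockout minus wildtype was 1.38 in spermatogonia (standard error 0.89; 0.46 without mouse 544 and 2.29 without mouse 286) and, with a standard error of 0.81 each, -0.60 in primary spermatocytes, 0.10 in secondary ones and 0.75 in spermatids, with adjusted p from 0.737 to 1 (limma). For *Csmd3* it was 1.78 (1.0), 0.06 (0.91), 1.06 (0.91) and -0.36 (0.91), with adjusted p from 0.705 to 1 (limma). Among all 22132 genes 0.00452%, 0.00904%, 0.00452% and 0.00452% passed in stage order. The *Csmd3* value in spermatogonia rests on the library of mouse 544: it was -0.02 without it, and 3.59 (adjusted p = 0.0248, limma) without mouse 286. The exact permutation p was 0.30 or more in every stage for either gene, where the designs allow no less than 0.333 in spermatogonia and 0.10 in the others.

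Averaged over the 4 stages, *Csmd2* differed by 0.41 (standard error 0.42, 95% interval -0.48 to 1.29, adjusted p = 0.698) and *Csmd3* by 0.64 (0.47, -0.36 to 1.63, adjusted p = 0.602) between knockout and wildtype in limma, where 0.0136% of genes passed. With 1 value per mouse (4 knockout against 3 wildtype mice) the differences were 0.73 and 0.29, with exact permutation p of 0.143 and 0.657 (two-sided). The median of all genes was itself shifted by 0.22 in this comparison, by 0.11 to 0.26 in the single stages and by 0.39 in whole testis. Of single transcripts, 0 of the 13 *Csmd2* and *Csmd3* transcripts tested passed in this comparison or in whole testis, and 0 had an unadjusted p under 0.05 (limma), while 0.00295% of 67840 passed in the former. The knockout effect in late minus early stages was 0.04 (standard error 0.83) for *Csmd2* and -0.57 (0.93) for *Csmd3*, both with an adjusted p of 1 (limma). There 0.0% of genes passed and 296 had an unadjusted p under 0.05.

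The 27 libraries fall into 3 sets by how many transcripts have no value (865, 1411 or 2828), here called quantification sets, which were inferred from the values and are in no label. Within a set, sorted knockout cells could be compared with wildtype for 1 to 2 mice a side. Whole testes could be compared for 5 knockout mice against wildtype 178, with differences of -0.10 for *Csmd2* and -1.04 for *Csmd3*. For *Csmd2* the differences in sorted cells were 0.93 in spermatogonia (286 against 178) and 0.88 in primary spermatocytes (614 against 648). They were 1.10 in secondary spermatocytes (286 against 178) and 1.21 in spermatids (286 against 178 and 351). For *Csmd3* they were -0.36, 0.08, -0.03 and -1.70. The knockout spermatids in the last comparison are those of mouse 286, poor in spermatid markers.

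The ovary held less of either paralog than any testis, and more *Csmd1*. In the single ovary library the summed RPKM was 0.021 for *Csmd2* and 0.083 for *Csmd3*, below the lowest of the 7 testes (0.823 and 0.487), and with 1 ovary the difference has no replicate check. Csmd2-201 and Csmd2-203 held 2 reads each there and the other *Csmd2* transcripts 0. Csmd3-201 had 13 reads, of which 10 lay outside Csmd3-207 (76.9%, 95% Wilson interval 49.7 to 91.8%) and 0 were counted for Csmd3-205. *Csmd1* stood at 14.6 RPKM in the ovary and at 0.058 to 2.10 in the testes.

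**Figure D5:**
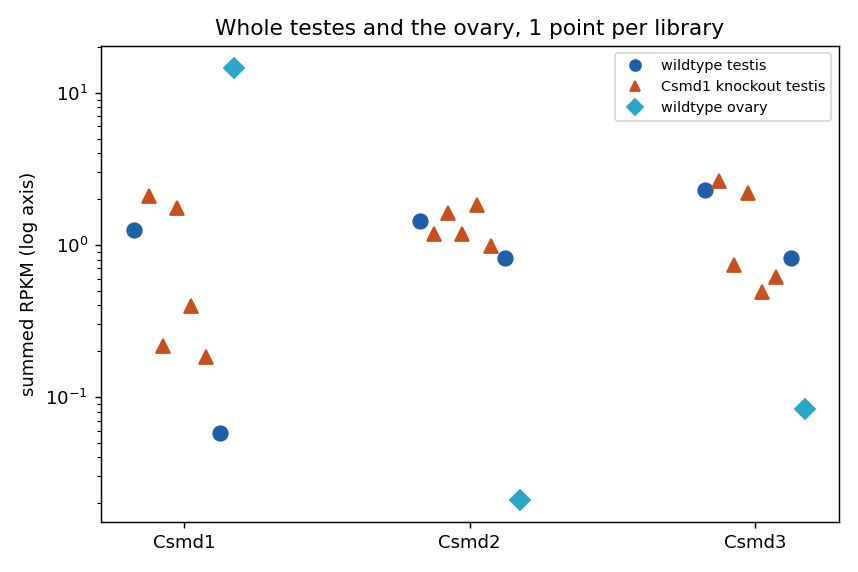
Summed RPKM (log axis) of *Csmd1*, *Csmd2* and *Csmd3* in the 7 whole testes (blue circles wildtype, orange triangles *Csmd1* knockout) and the wildtype ovary (diamond), 1 point per library. The ovary lies above all testes for *Csmd1* (14.6) and below all of them for *Csmd2* (0.021) and *Csmd3* (0.083).

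Full-length *Csmd3* and *Csmd1* transcripts were compared per length, and their order varied between libraries of the testis. Csmd3-201 exceeded Csmd1-201 in 10 of 19 sorted libraries and 3 of 7 testes. In spermatids of wildtype 178, 351 and 648 Csmd3-201 stood at 0.815, 0.587 and 0.200 RPKM and Csmd1-201 at 0.517, 0.160 and 0.070. Knockout 544 had the reverse order in spermatids, with 0.564 for Csmd3-201 and 2.0 for Csmd1-201. There Csmd1-201 held 1328 reads, and Csmd1-203, a transcript of exons 49 to 70, held 1269. In the ovary Csmd3-201 had 0.019 and Csmd1-201 had 2.23 RPKM. No full-length value of *Csmd2* can be set beside these.

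The genes around the paralogs were read beside them. Inside *Csmd2* lie Csmd2os and Hmgb4 on the opposite strand and Hmgb4os on the same strand, and inside *Csmd3* lie the pseudogene Gm16300 and the small RNA genes Gm23530 and Gm25007. None shares an exonic base with its host. Hmgb4, a germ cell HMG box gene, ran from 0.194 to 172 RPKM in sorted cells, and in wildtype spermatids from 9.32 to 155. Csmd2os stayed at or below 0.831, Gm16300 at or below 0.887 and Gm23530 at or below 0.283 RPKM in sorted cells, and Gm25007 was 0 in all. The nearest coding genes were CK137956 (11.5 to 337 RPKM in sorted cells) and Zscan20 (5.68 to 16.7) beside *Csmd2*, and Kcnv1 (0 to 1.08) and Trps1 (0 to 3.08) beside *Csmd3*, which lie 2465716 and 1862688 nt away.

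Across the 27 libraries, the genes most like each paralog were taken by Pearson correlation of log2(RPKM + 0.1) sums among 22857 genes with a mean of at least 0.1 RPKM, as a description, since libraries of a mouse are not independent. For *Csmd2* they were Chrnb2, a nicotinic acetylcholine receptor subunit (r = 0.912), Dnm1, a dynamin (0.911), and the lincRNA Gm11840 (0.909). For *Csmd3* they were 1700030J22Rik (0.951), Vwa3b (0.950) and Hk1, hexokinase 1 (0.950). The paralogs had r = 0.509 with each other, and r with *Csmd1* was -0.051 for *Csmd2* and 0.461 for *Csmd3*. These values include the single ovary, which held 14.6 RPKM of *Csmd1* but only 0.021 of *Csmd2* and 0.083 of *Csmd3*. They also include knockout libraries, where *Csmd1* sums count reads behind the deleted exon. No r was taken for wildtype germ cells alone.

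Complement regulators, some of which carry Sushi domains, were read as a list. Of 13 complement regulators tested, 3 rose in wildtype late stages and 0 fell: Cd55 by 1.70, Cd55b by 1.95 (both decay-accelerating factors) and Cd59b, an inhibitor of the membrane attack complex, by 1.29. That share is near the 20.0% of all genes. The median of the list was 0.39, and that of all genes -0.09. With both genotypes 4 rose (the same 3 and Cr2, by 1.55) and Susd4 fell by 1.43, again near the 40.3% of all genes. In wildtype spermatogonia against other stages Cr1l, Clu, Serping1 and Susd4 rose, by 3.38, 2.06, 3.48 and 4.55, while Cd55 fell by 1.69 and Cd55b fell by 3.80. In that comparison 38.7% of all 21685 genes passed (5123 rose and 3271 fell). There 5 of 6 peritubular and stromal markers, 5 of 6 macrophage markers and 4 of 5 Sertoli markers tested rose as well. Their part in the changes of the regulators was not tested.

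Among 10 members of the wider CUB and Sushi family tested, Sez6l, a neuronal relative of *Csmd3* in domain type, rose by 2.57 in wildtype late stages (standard error 0.48, adjusted p = 0.00886, limma) and 0 fell, against 20.0% of all genes called. The list median was -0.19, against -0.09 for all genes. With both genotypes Sez6l rose by 3.04, Susd1 fell by 1.25 and Susd4 fell by 1.43, against 40.3% of all genes called. In wildtype spermatogonia 5 of 10 rose (Susd1, Susd2, Susd3, Susd4 and Susd6) and Susd5 fell by 1.63, with a list median of 1.07 and 38.7% of all genes called. In the comparisons of knockout with wildtype 0 genes of either list passed in limma, with 0 to 2 regulators and 0 to 3 family members at an unadjusted p under 0.05 in each. The family list includes *Csmd1* itself, which is 1 of the 3 over the mean of 4 stages. There 2317 of 22132 genes had such a p. In the other comparisons the count ran from 256 of 22132 genes (spermatids) to 2492 of 22763 (whole testis).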

How the data were processed

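Poly(A) RNA was read from both ends. The authors aligned with TopHat2, counted on Ensembl transcripts, and deposited each library as a column of RPKM values. The methods of the study also name PEER adjustment and quantile normalization, but the deposited RPKM of 27 libraries still fall on whole reads. Transcripts were matched to GENCODE M21 on GRCm38 (90339 of 94480). Sums over transcripts were tested on log2(RPKM + 0.1) with limma 3.58.1 (trend, R 4.3.3), for genes with a mean of at least 0.1 RPKM (*Csmd2* and *Csmd3* always kept), with Benjamini-Hochberg adjustment over all genes tested and a threshold of 0.05. Exact permutation tests used numpy 2.4.6, and coding sequences were aligned with MAFFT 7.526. Depth is the number of mapped reads that makes RPKM times length whole within 0.06 of a read, for transcripts between 200 and 2500 nt holding at most 6. Intervals on shares of reads cover counting error only. The fits were run on simulated data with independent libraries. That simulation held no correlation inside a mouse and no mixed sorts, so it cannot show how the fits behave under either. The members, gene lists, markers and tests were chosen with earlier results of these data known. Named genes are the paralogs, genes at their loci, list members a result touches (1 is not reported here), and the 3 most correlated genes of each. Alternatives were other pseudocounts, filters and scalings, a block for the mouse, a set inferred from the number of transcripts without a value, single transcripts and leaving out libraries. The pairing comes from the mouse numbers in the labels: residuals of libraries of the same mouse had a median correlation of 0.45 (22 pairs, -0.28 to 0.67), those of different mice -0.08 (135 pairs).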

Additional observations from a re-analysis of the deposited data

Results flagged for a closer look

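Of 30 groups of 4 or 5 values examined (each gene or transcript in knockout primary spermatocytes and knockout whole testes), 5 held a value far from the rest, where chance flags about 1 in 20 groups of like values, a rate that does not apply to the differently quantified library of 613 or to values tied at 0. In the primary spermatocytes of knockout 613 these were the summed *Csmd3* (23.2 RPKM), Csmd2-204 (1.44), Csmd3-203 (1.04) and Csmd3-206 (21.3), against at most 1.21, 0.280, 0.016 and 0 in the other 3 mice. In knockout testes Csmd3-206 stood at 0.159 RPKM in mouse 273, from 4 reads, and at 0 in the other 4. The library of knockout 613, left out of the comparisons, also held 8.68 RPKM of summed *Csmd2* and 23.2 of *Csmd3*, above the 1.24 to 1.99 and 0.657 to 0.941 of wildtype primary spermatocytes. Its full-length Csmd3-201 is listed at 0, and its values were quantified differently from the others.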

How the results depend on the processing

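Of 532 values recomputed under alternatives, 478 kept direction and side of the threshold. The *Csmd3* rise in wildtype late stages (2.23) missed it with a pseudocount of 1 RPKM (1.22), the longest coding transcript (1.35) and without mouse 648 (2.58), and *Csmd3* in spermatogonia did under the same 3 (-1.22, -1.37, -2.79), as did *Csmd2* without mouse 648 (-2.68). With 613 the *Csmd3* rise over both genotypes was 1.65 (adjusted p = 0.0583, limma). A longest coding transcript could not be run for *Csmd2*. With the mouse as a replicate block the calls of *Csmd2* and *Csmd3* stayed on their side, and knockout minus wildtype turned to -0.22 for *Csmd3* in primary spermatocytes.

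Knockout differences, none of which passed, turned sign as follows. With the quantification set as a term, *Csmd2* in testis was -0.10, and *Csmd3* was -0.30 over 4 stages, -0.83 in primary and -0.06 in secondary spermatocytes. Quantile normalization gave *Csmd2* -0.30 in secondary spermatocytes and -0.15 in testis, and *Csmd3* -0.44 in primary spermatocytes. Without mouse 648 these were -0.10 (*Csmd2*, testis) and -0.17 (*Csmd3*, primary spermatocytes). With 613 *Csmd2* was 0.15 in primary spermatocytes and -0.33 in the late minus early effect, which was -0.06 with a pseudocount of 0.01 and -0.08 for Csmd2-203, a choice made after seeing the data. Csmd2-203 gave -0.07 in testis. Without the 3 libraries whose spermatid markers depart from the labels, also chosen after seeing the data, *Csmd3* was 0.35 in the late minus early effect and -0.02 in spermatogonia. The cause was not tested.

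Leaving out 1 library at a time gave these ranges. *Csmd3* late minus early in wildtype ran from 1.92 to 2.56 (7 of 9 calls lost), and spermatogonia minus others from -2.96 to -2.29 for *Csmd3* and -2.70 to -1.76 for *Csmd2* (the call lost without either spermatogonia library). Knockout minus wildtype for *Csmd2* ran from 0.46 to 2.29 in spermatogonia, -1.18 to 0.19 in primary and -0.37 to 0.47 in secondary spermatocytes, 0.37 to 1.09 in spermatids, -0.10 to 0.63 in testis, 0.18 to 0.64 over 4 stages and -0.42 to 0.50 in the late minus early effect. For *Csmd3* it ran from -0.02 to 3.59 in spermatogonia (past the threshold without knockout 286), -0.20 to 0.29 in primary and 0.45 to 1.67 in secondary spermatocytes, -1.05 to 0.33 in spermatids, -1.04 to 0.34 in testis, 0.18 to 1.09 over 4 stages and -1.47 to 0.33 in the late minus early effect. The number of all genes called moved too: without mouse 648 from 4332 to 0 (wildtype late minus early), 8394 to 0 (spermatogonia) and 0 to 159 (testis), without the spermatogonia of knockout 286 from 1 to 2307 (knockout spermatogonia) and 3 to 1008 (mean of 4 stages), with the quantification set from 4332 to 7759 and 2 to 298 (knockout primary spermatocytes), and with no filter from 1 to 32 (knockout secondary spermatocytes). Exons 1 to 10 of *Csmd3* rest on few reads, and the wildtype groups hold 2 or 3 mice a stage.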
